A study of Mus musculus with 6 samples.

Results

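The genes described here are the subunits of the vacuolar proton pump (V-ATPase) and the core machinery of autophagy, measured in mouse bone marrow cultures with and without midkine. Members were taken by symbol: names starting with Atp6v or Atp6ap except Atp6v0d2, names of Atg followed by a digit, and Map1lc3a, Map1lc3b, Gabarap, Gabarapl1, Gabarapl2, Sqstm1, Becn1, Ulk1, Ulk2, Wipi1 and Wipi2. This gave 46 of the 15443 gene symbols measured, 17 for the V-ATPase and 29 for autophagy. Of the 46, 45 passed a filter of a mean of at least 5 normalized counts. The exception was Atg9b, at 4.10, 8.18 and 5.92 normalized counts in the controls and 3.87, 2.11 and 5.45 with midkine.

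All cultures were of C57BL/6J (inbred, genotype WT) marrow kept for 3 days in FLT3LG at 50 ng/ml, a cytokine needed for progenitors to become dendritic cells (DCs). The 3 control libraries (replicates 1, 2 and 4) received nothing further, and the 3 midkine libraries (replicates 3, 4 and 5) received recombinant human midkine, a secreted heparin-binding growth factor, at 10 ng/ml. The comparison asks how midkine alters such cultures. Whether replicates came from different animals or dishes is not given in the labels. The p-values therefore set group differences against the spread between these libraries only. If that spread is technical, they are too small for a claim about midkine. Values are given in the order control 1, 2, 4 and midkine 3, 4, 5 throughout.

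The libraries held 5985684 to 6415043 reads (control) and 6042165 to 7233960 (midkine). Midkine 5 stood apart: reads of mitochondrial ribosomal RNA made up 0.377% of the library (Wilson 95% interval 0.372 to 0.381%), where the controls had 4.91 to 6.16%, midkine 3 had 4.12% and midkine 4 had 4.69%. Results are therefore given with all 6 libraries and without midkine 5. Counts come from the 3′ ends of transcripts, with 1 fragment per transcript, so levels of different genes are on one scale without a length correction. Cultures were mixed populations: the summed neutrophil markers took 2.02 to 2.30% of reads in the controls and 2.81 to 3.00% with midkine, and 8 conventional DC markers summed to 1601 to 1667 and 856 to 1032 normalized counts. In such bulk samples, a change in the number of cells of a type and a change in RNA per cell cannot be told apart.

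The V-ATPase is a rotary proton pump of lysosomes, endosomes and, in some cells, the plasma membrane. Its peripheral V1 sector hydrolyses ATP in the cytosol, and its membrane-embedded V0 sector carries protons into the lumen. In autophagy, the ULK1 kinase complex and the Beclin 1 lipid kinase complex start a membrane, ATG9 and ATG2 proteins supply its lipid, and ubiquitin-like conjugation couples ATG8 proteins (LC3 and GABARAP) to it. The closed vesicle then fuses with a lysosome, whose acidity depends on the V-ATPase. In macrophages and DCs the same acidification serves the breakdown of engulfed material and antigen processing.

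V-ATPase transcripts took a larger share of reads in every midkine library than in any control. Their summed share of reads was 0.511, 0.513 and 0.505% in the controls and 0.696, 0.745 and 0.830% with midkine. The Wilson 95% intervals of the closest pair were 0.508 to 0.519% (control 2) and 0.690 to 0.703% (midkine 3), for counting error only. Over the 17 genes the median log2 fold change (midkine minus control) was 0.62, against −0.00 for all 13543 genes tested. Without midkine 5 the median was 0.52, also against −0.00. The medians in midkine 3, 4 and 5 taken singly, each against the control mean, were 0.46, 0.63 and 0.49. Autophagy transcripts lay closer together: 0.178, 0.169 and 0.174% of reads in the controls and 0.205, 0.200 and 0.218% with midkine. Their 28 tested genes had a median of 0.29 with all 6 libraries and 0.19 without midkine 5.

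With all 6 libraries, limma called none of the 45 tested members at an adjusted p under 0.05, and it called 0% of all genes. The smallest adjusted p among members was 0.0788, shared by Atp6v1c1 and Atp6v1e1. At an unadjusted p under 0.05, 18 members were higher and 0 lower, against 10.4% of all genes higher and 9.30% lower. The 3 midkine values lay above all 3 control values for 24 members and below them for 0, against 15.5% and 15.3% of all genes. Without midkine 5, limma called 22 members higher and 0 lower at an adjusted p under 0.05, against 9.92% of all genes higher and 8.52% lower. "Rose" and "fell" below refer to these calls on 5 libraries. On the whole reads of all 6 libraries, edgeR called 0 members (0.0738% of all genes, smallest adjusted p among members 0.0806). DESeq2 called 9, all V-ATPase genes and all higher. Of all genes it called 457 higher and 232 lower, together 5.89% of the 11704 genes given an adjusted p.

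**Figure D1:**
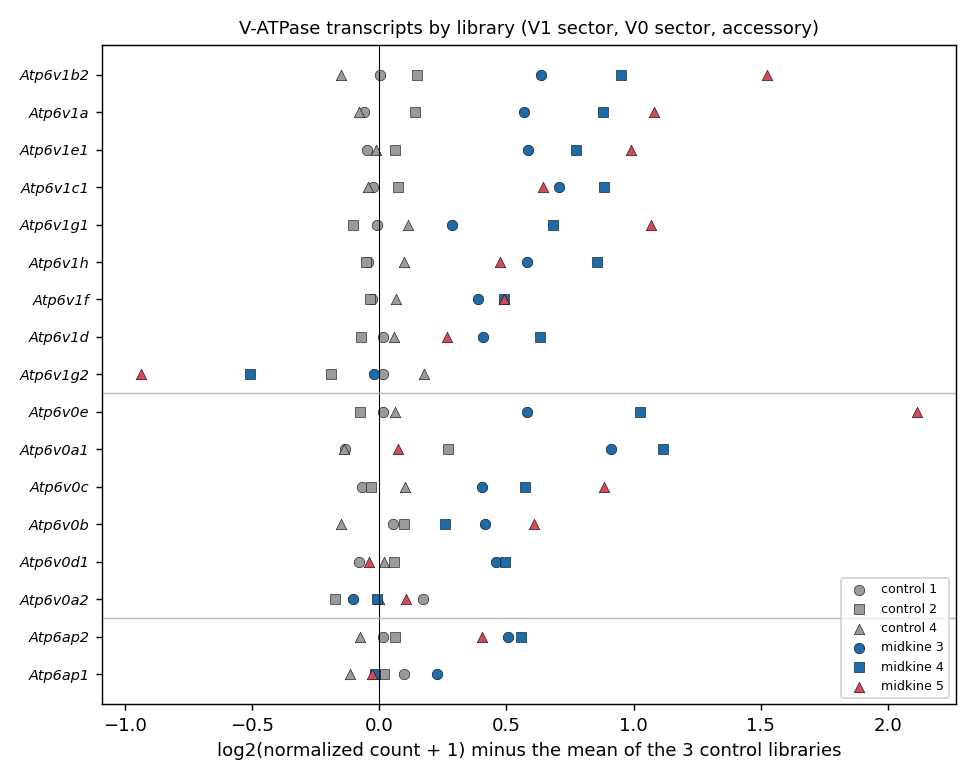
V-ATPase members by library. The horizontal axis is log2(normalized count + 1) minus the mean of the 3 control libraries, each row is a gene, and each point is a library. The midkine points of 8 of the 9 V1 genes lie to the right of every control point, and the widest spread within the midkine group is that of Atp6v0e.

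In the V1 sector nearly every gene was higher with midkine. Its 9 measured genes had a median log2 fold change of 0.68 with and without midkine 5, 8 had no overlap between the groups, and 8 rose. Atp6v1a encodes the catalytic A subunit, which hydrolyses ATP, and lies on the minus strand at chr16:44085402-44139705 (GRCm38). It stood at 1583, 1817 and 1559 normalized counts in the controls and at 2445, 3039 and 3488 with midkine. The groups did not overlap and all midkine libraries were high. The log2 fold change was 0.84 (SE 0.171, limma adjusted p 0.0810) with all libraries and 0.72 (SE 0.111, adjusted p 0.000264) without midkine 5.

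Atp6v1b2 (chr8:69088646-69113711, plus strand), the B subunit that forms the catalytic ring with A, held 1793, 1986 and 1614 normalized counts in the controls and 2785, 3462 and 5163 with midkine. Every midkine library lay above the controls, and midkine 5 was the highest. Its log2 fold change was 1.04 (SE 0.230, limma adjusted p 0.0890), and 0.79 (SE 0.114, adjusted p 0.000160) without midkine 5. No row for the other B gene, Atp6v1b1, was analysed here.

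Stalk subunits hold that ring in place. For Atp6v1c1 (chr15:38661933-38692446, plus strand), the C subunit whose release accompanies the regulated separation of V1 from V0, values were 492, 527 and 485 normalized counts in the controls and 819, 926 and 783 with midkine. The groups were far apart relative to their spread, at 501 ± 22.2 and 843 ± 74.2 (SD, n = 3 each). The log2 fold change was 0.75 (SE 0.141, limma adjusted p 0.0788) with all libraries and 0.80 (SE 0.106, adjusted p 7.84e-05) without midkine 5. Atp6v1e1 (chr6:120794305-120822793, minus strand), a peripheral stalk subunit, was at 1086, 1175 and 1114 normalized counts in the controls and 1685, 1922 and 2237 with midkine. Again the groups did not overlap. The log2 fold change was 0.78 (SE 0.153, limma adjusted p 0.0788), and 0.68 (SE 0.10, adjusted p 0.000187) without midkine 5. Its exons overlap Slc25a18 on the other strand, and reads from the overlap cannot be told apart here because the strand setting is not given. Atp6v1g1, the partner of the E subunit in the stalk, gave 1557, 1458 and 1695 normalized counts in the controls and 1911, 2518 and 3289 with midkine. Midkine 3 was the nearest to the controls, and no value overlapped. The log2 fold change was 0.68 (SE 0.207, limma adjusted p 0.151) and 0.48 (SE 0.116, adjusted p 0.00727) without midkine 5.

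Atp6v1h, the regulatory H subunit, held 247, 245 and 272 normalized counts in the controls and 382, 461 and 354 with midkine, and its log2 fold change was 0.64 (SE 0.161, limma adjusted p 0.11). It rose by 0.72 (SE 0.123, adjusted p 0.000598) without midkine 5. Exons of Atp6v1h overlap Rgs20 on the other strand. Atp6v1f, a subunit of the central rotor and the most abundant V1 transcript, was at 3230, 3208 and 3442 normalized counts in the controls and 4310, 4628 and 4622 with midkine. The midkine libraries were close to each other and above every control. Its log2 fold change was 0.46 (SE 0.133, limma adjusted p 0.140), and 0.44 (SE 0.0972, adjusted p 0.00417) without midkine 5.

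The remaining V1 genes, like the other members outside the naming rule, are named after their values were seen. Atp6v1d, also of the rotor, had values of 716, 674 and 737 normalized counts in the controls and 940, 1099 and 852 with midkine, and rose by 0.52 (SE 0.105, limma adjusted p 0.00221) without midkine 5. Atp6v1g2, a G subunit best known from brain, was scarce, at 30.8, 26.6 and 34.5 normalized counts in the controls and 30.0, 21.1 and 15.4 with midkine. It was the V1 gene that did not move with the rest: the groups overlapped, and its log2 fold change was −0.49 (SE 0.299, limma adjusted p 0.385). Exons of Atp6v1g2 overlap Nfkbil1 on the other strand. Within the G pair, Atp6v1g2 took 1.94, 1.79 and 2.0% of reads in the controls and 1.54, 0.832 and 0.467% with midkine, with Wilson 95% intervals of 1.44 to 2.76% in control 4 and 0.292 to 0.747% in midkine 5.

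The V0 sector also held more transcripts with midkine. Its 6 genes had a median of 0.52 on the log2 scale, and 0.48 without midkine 5. Only 3 had no overlap between the groups, and 5 rose. Atp6v0c, the proteolipid that forms the proton-carrying ring, was the most abundant member of all, at 10220, 10462 and 11487 normalized counts in the controls and 14184, 15924 and 19786 with midkine. The groups did not overlap, and midkine 5 was the highest. Its log2 fold change was 0.62 (SE 0.175, limma adjusted p 0.135), and 0.49 (SE 0.112, adjusted p 0.00533) without midkine 5. Atp6v0c (chr17:24163866-24169702, minus strand) has 2 annotated pseudogenes that carry its name, so its count is uncertain if reads could be split between them.

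Atp6v0e (chr17:26663231-26699647, plus strand), the small e subunit of V0, had the largest fold change of all members with all 6 libraries. It was at 682, 640 and 703 normalized counts in the controls and 1008, 1375 and 2924 with midkine. All midkine libraries were above the controls, but midkine 5 held more than the sum of midkine 3 and 4. Midkine minus control, the log2 difference was 1.24 (SE 0.343, limma adjusted p 0.132) with all libraries. Without midkine 5 it was 0.80 (SE 0.121, adjusted p 0.000223), and the largest was that of Atp6v0a1 (1.01).

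Atp6v0a1 is an isoform of the large a subunit, which carries the path of the protons and steers the pump to a compartment. It ran against this pattern in midkine 5: its values were 844, 1119 and 842 normalized counts in the controls and 1743, 2008 and 975 with midkine. Midkine 3 and 4 were high, and midkine 5 lay within the range of the controls. On the log2 scale the change was 0.70 (SE 0.273, limma adjusted p 0.220) with all libraries and 1.01 (SE 0.123, adjusted p 3.83e-05) without midkine 5. Atp6v0a2, an isoform of the Golgi and endosomes, was at 329, 259 and 292 normalized counts in the controls and 272, 290 and 314 with midkine. Its groups overlapped, with a log2 fold change of −0.00 (SE 0.159, limma adjusted p 0.995).

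Tcirg1, which encodes the a3 isoform of lysosomes and of the osteoclast plasma membrane, falls outside the symbol rule but competes for the same place in the pump. Its share of a-subunit reads (Atp6v0a1, Atp6v0a2 and Tcirg1 together) was 31.9, 29.3 and 31.8% in the controls, 25.0 and 25.8% in midkine 3 and 4, and 51.9% in midkine 5 (Wilson 95% interval 50.1 to 53.7%). Atp6v0a1 took 49.0, 57.4 and 50.6% in the controls, 64.9 and 64.8% in midkine 3 and 4, and 36.3% in midkine 5 (34.6 to 38.1%). Transcripts of a1 were thus the most abundant of the 3 in 5 libraries and those of a3 in midkine 5. Tcirg1 itself was at 551, 572 and 530 normalized counts in the controls and 671, 799 and 1393 with midkine, and rose by 0.41 (SE 0.109, limma adjusted p 0.0135) without midkine 5. No gap of this kind between midkine libraries was seen for Atp6v0a2, at 10.1, 9.37 and 11.7% of a-subunit reads.

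The other V0 genes were less abundant or moved less. Atp6v0b, a second proteolipid, gave 1463, 1504 and 1266 normalized counts in the controls and 1875, 1685 and 2146 with midkine, without overlap, and rose by 0.34 (SE 0.105, limma adjusted p 0.0315) without midkine 5. Atp6v0d1, the d subunit that joins the central rotor to the ring, was at 412, 454 and 442 normalized counts in the controls and 599, 614 and 424 with midkine. As for Atp6v0a1, midkine 5 lay among the controls, and the gene rose by 0.48 (SE 0.106, limma adjusted p 0.00438) without that library. Its paralogue Atp6v0d2, outside the rule and known from osteoclasts and macrophages, took 30.0, 43.0 and 21.0% of d-subunit reads in the controls and 44.6, 48.9 and 42.8% with midkine. Control 2 (39.6 to 46.5%) overlapped midkine 5 (39.4 to 46.2%). Over the monocyte and macrophage marker list the sums were 17076 to 18599 normalized counts in the controls and 22022 to 25329 with midkine, where 9 of 12 markers rose and 1 fell. The osteoclast list summed to 1373 to 1456 and 1673 to 1718, with Acp5, Ctsk and Tnfrsf11a of 6 measured genes rising and Ocstamp at 6.15 normalized counts or less in every library. Neutrophil markers gave 5 of 10 rising, those of mast cells, basophils and eosinophils 6 of 6, and those of B cells 6 of 6. The B cell list summed to 1070, 1432 and 1013 normalized counts in the controls and 2152, 1897 and 1116 with midkine. Midkine 5 thus lay within the range of the controls, and 2 of the 6 B cell genes kept their direction there. Conventional DC markers gave 6 of 8 falling. Those of plasmacytoid DCs gave 2 of 6 falling (sums of 5367 to 5972 normalized counts in the controls and 4124 to 4672 with midkine). The part of these cell types in the V-ATPase and autophagy values was not tested.

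**Figure D2:**
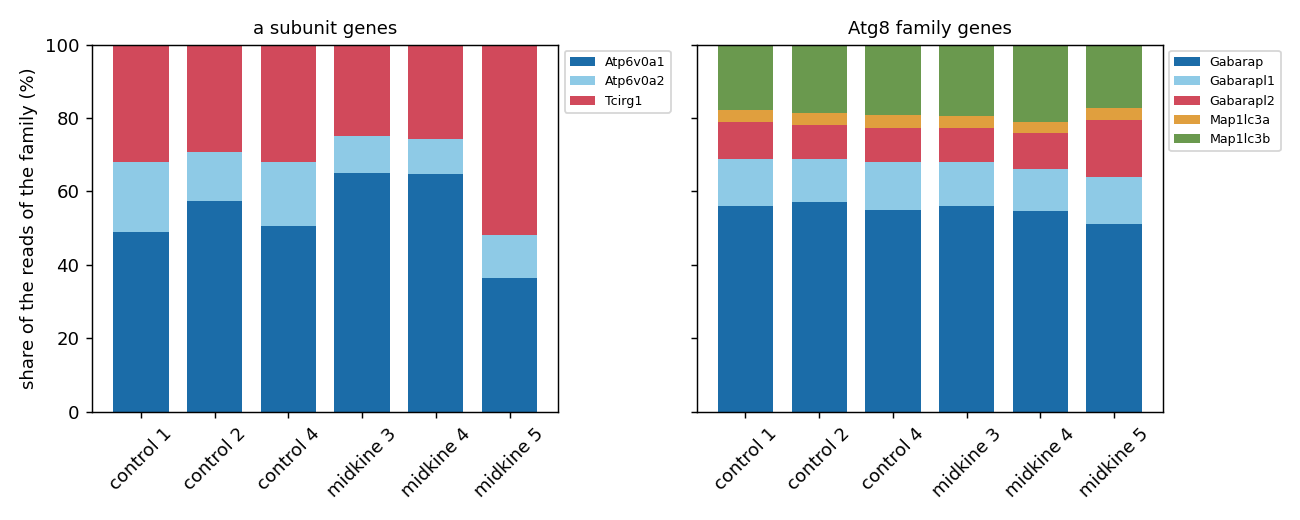
Shares of isoforms by library. Bars stack to 100% of the reads of the genes named in each panel and the horizontal axis lists the 6 libraries. In the a-subunit panel Tcirg1 reaches 51.9% in midkine 5 and 25.0 to 31.9% elsewhere, and in the Atg8 panel Gabarapl2 reaches 15.6% in midkine 5.

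Both accessory proteins were abundant, and 1 of them rose. Atp6ap2, the prorenin receptor and an assembly partner of V0, was at 2515, 2596 and 2359 normalized counts in the controls and 3536, 3657 and 3288 with midkine. No midkine value overlapped a control. The fitted log2 fold change was 0.49 (SE 0.135, limma adjusted p 0.132), and 0.53 (SE 0.0962, adjusted p 0.000901) without midkine 5. Atp6ap1, the other assembly partner and the higher of the pair, was at 4171, 3960 and 3605 normalized counts in the controls and 4569, 3864 and 3823 with midkine, with overlapping groups. The log2 fold change of Atp6ap1 was 0.06 (SE 0.148, limma adjusted p 0.834), and its sign turned without midkine 3 (−0.023) and under quantile normalization (−0.089).

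Sequence around RefSeq start sites was compared for a motif that bears on these genes. TFEB, TFE3 and MITF, transcription factors of lysosome and autophagy genes, bind E-boxes with the core CACGTG, most strongly in the longer palindrome TCACGTGA. Both motifs read the same on both strands, and each TCACGTGA holds a CACGTG. RefSeq windows (GRCm38.p6) of 300 bases, 250 before to 50 after the annotated start, were found for 37 members. Those of 9 others, among them Atp6v1b2, Atp6v1c1, Atp6v1h, Atp6v1g1 and Atp6v0a2, were not analysed here. TCACGTGA was present for 3 of 12 V-ATPase genes (25%), 1 of 25 autophagy genes (4%) and 304 of all 27025 genes with a window (1.13%). CACGTG was present for 4 of 12 (33.3%), 4 of 25 (16%) and 2187 of 27025 (8.09%). The 27025 genes include many outside the 15443 measured here, so members are not set against genes of like expression. A match is a description of the letters, not a measured binding site.

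The following stretches of 120 bases are the 4 V-ATPase genes with a match and the autophagy gene with the longer palindrome. They run 5′ to 3′ on the strand of the gene, with TCACGTGA in capitals, or CACGTG where the flanking letters differ. Positions are Atp6v1a chr16:44139344-44139463 (minus), Atp6v0e chr17:26676291-26676410 (plus), Atp6v0d1 chr8:105566050-105566169 (minus), Atp6v0b chr4:117887315-117887434 (minus) and Atg3 chr16:45158685-45158804 (plus).
Atp6v1a: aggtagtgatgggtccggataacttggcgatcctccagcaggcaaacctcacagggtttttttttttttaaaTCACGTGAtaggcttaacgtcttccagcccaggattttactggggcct
Atp6v0e: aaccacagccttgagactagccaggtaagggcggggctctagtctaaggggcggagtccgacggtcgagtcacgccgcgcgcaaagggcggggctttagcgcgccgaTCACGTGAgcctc
Atp6v0d1: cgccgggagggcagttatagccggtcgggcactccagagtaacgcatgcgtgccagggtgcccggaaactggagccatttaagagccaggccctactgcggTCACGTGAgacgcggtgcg
Atp6v0b: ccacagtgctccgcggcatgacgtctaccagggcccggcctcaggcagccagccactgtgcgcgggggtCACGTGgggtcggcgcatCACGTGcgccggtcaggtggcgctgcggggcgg
Atg3: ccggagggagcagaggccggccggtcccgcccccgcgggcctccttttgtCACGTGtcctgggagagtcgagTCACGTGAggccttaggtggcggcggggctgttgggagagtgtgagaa
Relative to the start site of the RefSeq window, the motif began 132 bases before in Atp6v1a, 4 before in Atp6v0d1 and 2 after in Atp6v0e. The stretches of Atp6v1a and Atp6v0e lie inside the gene spans given above, downstream of the outermost annotated start. Atp6v0b holds copies 36 and 18 bases before its start site, both of the short form. In Atg3 the copies lie 94 (short) and 72 (long) bases before it. All 4 V-ATPase genes shown here rose without midkine 5, as did 6 of the 8 with a window that lacks CACGTG. Atg3, the enzyme that passes ATG8 to its lipid, was at 305, 311 and 286 normalized counts in the controls and 333, 376 and 373 with midkine, without overlap, but did not pass the test (log2 fold change 0.23, SE 0.117, limma adjusted p 0.179 without midkine 5). The short motif was also present in the windows of Atg14, Atg5 and Atg7, where those of Atg14 and Atg7 likewise lie inside the annotated gene.

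Autophagy genes had a smaller median difference than V-ATPase genes (0.29 against 0.62), a comparison that was not tested. Of 28 tested genes 12 had no overlap between the groups, all higher with midkine, and 8 rose (Atg12, Atg4c, Atg5, Atg7, Gabarap, Map1lc3b, Ulk1 and Ulk2). At an unadjusted p under 0.05 with all 6 libraries there were 5, and DESeq2 called 0.

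**Figure D3:**
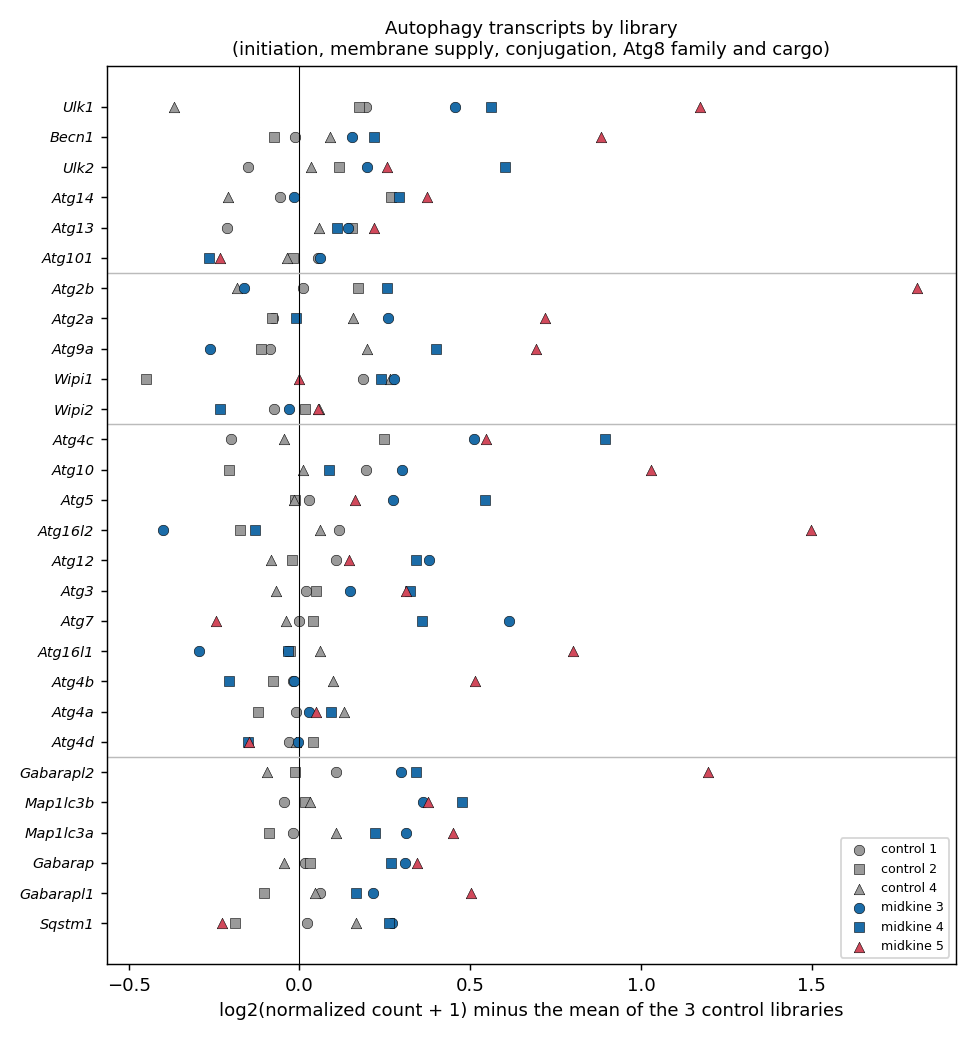
Autophagy members by library. Axis and symbols are those of the V-ATPase plot: log2(normalized count + 1) minus the control mean on the horizontal axis, a gene per row and a point per library. Midkine 5 lies apart from the other midkine libraries for Atg16l2 and Atg2b, where midkine 3 and 4 fall near the controls.

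Among the 6 initiation genes the median log2 fold change was 0.28, and 0.16 without midkine 5, with 2 of them rising. Ulk1 (chr5:110784488-110810097, minus strand), the kinase that starts autophagy when nutrients run low, was at 165, 163 and 111 normalized counts in the controls and 198, 213 and 326 with midkine. The groups did not overlap, and control 4 was the lowest. The difference came to a log2 fold change of 0.73 (SE 0.247, limma adjusted p 0.180), and 0.51 (SE 0.165, adjusted p 0.0388) without midkine 5. Ulk2, its paralogue, held 237, 285 and 269 normalized counts in the controls and 302, 400 and 314 with midkine, and rose by 0.40 (SE 0.137, limma adjusted p 0.0496) without midkine 5. Ulk2 had more reads than Ulk1 in 5 libraries, at 58.9 to 70.7% of the pair, and 49.1% (Wilson 95% interval 45.4 to 52.8%) in midkine 5.

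Becn1, the scaffold of the Beclin 1 lipid kinase complex and the most abundant initiation gene, was at 799, 766 and 858 normalized counts in the controls and 898, 940 and 1489 with midkine. Midkine 3 and 4 were just above the controls and midkine 5 far above them. As a log2 fold change this was 0.42 (SE 0.209, limma adjusted p 0.306) and 0.19 (SE 0.101, adjusted p 0.215) without midkine 5. Its exons overlap Cntd1 on the other strand. Atg13, Atg101 and Atg14, further subunits of the 2 initiation complexes, had overlapping groups and log2 fold changes of 0.16, −0.15 and 0.22.

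No gene of membrane supply passed the test, and none of the 5 tested was free of overlap. Their median log2 fold change was 0.28 with all libraries and 0.07 without midkine 5. Wipi2, which reads the lipid made by the Beclin 1 complex and was the most abundant here, held 396, 421 and 434 normalized counts in the controls and 408, 355 and 433 with midkine. This came to a log2 fold change of −0.07 (SE 0.148, limma adjusted p 0.808), and 0.01 without midkine 4. Atg2b, a lipid transfer protein, was at 66.7, 74.7 and 58.2 normalized counts in the controls and 59.0, 79.2 and 234 with midkine, so that midkine 3 lay among the controls, midkine 4 just above them and midkine 5 far above. Midkine minus control, the log2 difference was 0.63 (SE 0.454, limma adjusted p 0.451) with all libraries and 0.05 (SE 0.198, adjusted p 0.906) without midkine 5. Exons of Atg2b overlap Gskip on the other strand. Atg2a, Atg9a and Wipi1 had log2 fold changes of 0.32, 0.28 and 0.17 with all libraries and 0.13, 0.07 and 0.26 without midkine 5.

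Of the 11 conjugation genes 4 rose, and their median was 0.26 on the log2 scale, or 0.19 without midkine 5. Atg12, the ubiquitin-like protein joined to ATG5, was the most abundant, at 356, 325 and 312 normalized counts in the controls and 430, 419 and 366 with midkine, without overlap. On the log2 scale the change was 0.29 (SE 0.149, limma adjusted p 0.317), and 0.36 (SE 0.114, adjusted p 0.0334) without midkine 5. Atg4c, a protease that trims ATG8 proteins, was scarce but separate, at 37.9, 52.2 and 42.4 normalized counts in the controls and 62.8, 82.3 and 64.4 with midkine. The fitted log2 fold change was 0.65 (SE 0.219, limma adjusted p 0.179), and 0.70 (SE 0.216, adjusted p 0.0297) without midkine 5. The other 3 proteases of the family, Atg4a, Atg4b and Atg4d, had log2 fold changes of 0.06, 0.10 and −0.10 and did not pass the test with or without midkine 5.

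Atg5, the partner of ATG12, was at 285, 277 and 276 normalized counts in the controls and 338, 407 and 313 with midkine, and rose by 0.41 (SE 0.120, limma adjusted p 0.0241) without midkine 5. Atg7, the activating enzyme of both conjugation arms, was at 223, 229 and 217 normalized counts in the controls and 341, 286 and 188 with midkine. Midkine 3 and 4 were above the controls and midkine 5 below them, and the log2 fold change was 0.24 (SE 0.226, limma adjusted p 0.560) with all libraries and 0.49 (SE 0.125, adjusted p 0.0112) without midkine 5. Atg16l2 went the other way: it held 209, 171 and 201 normalized counts in the controls, 146 and 176 in midkine 3 and 4, and 546 in midkine 5. The difference came to a log2 fold change of 0.32 (SE 0.440, limma adjusted p 0.699) with all libraries and −0.27 (SE 0.144, adjusted p 0.218) without midkine 5. Atg16l1, the paralogue that places the conjugation machinery on the membrane, likewise had 0.16 and −0.16. Exons of Atg16l2 overlap Fchsd2 on the other strand. Atg10, the enzyme that joins ATG12 to ATG5, was at 71.8, 54.2 and 63.1 normalized counts in the controls and 77.3, 66.5 and 129 with midkine, with overlapping groups.

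Transcripts of the ATG8 proteins differed modestly and in the same direction. With Sqstm1, the 6 genes had a median log2 fold change of 0.32, and 0.28 without midkine 5. For 5 of them the groups did not overlap, and 2 rose. Gabarap, which serves late steps of autophagosome closure, was the most abundant autophagy member, at 2394, 2415 and 2291 normalized counts in the controls and 2928, 2850 and 3006 with midkine. Means were 2366 ± 66.1 and 2928 ± 78.0 (SD, n = 3 each), and the log2 fold change was 0.31 (SE 0.130, limma adjusted p 0.243), or 0.29 (SE 0.0942, adjusted p 0.0405) without midkine 5. Map1lc3b, the LC3 protein commonly used to mark autophagosomes, was at 759, 793 and 801 normalized counts in the controls and 1008, 1092 and 1018 with midkine. The midkine libraries were alike, midkine 5 included. As a log2 fold change this was 0.41 (SE 0.131, limma adjusted p 0.169), and 0.42 (SE 0.0991, adjusted p 0.00660) without midkine 5. Map1lc3b (chr8:121590361-121598760, plus strand) has exons that overlap Zcchc14 on the other strand.

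Gabarapl2, a further ATG8 protein, was at 432, 398 and 376 normalized counts in the controls and 493, 509 and 921 with midkine. All midkine values were above the controls, with midkine 5 far above the others. This came to a log2 fold change of 0.61 (SE 0.246, limma adjusted p 0.228), and 0.32 (SE 0.11, adjusted p 0.0518) without midkine 5, just short of the threshold. Gabarapl2 took 10.1, 9.40 and 9.02% of ATG8 reads in the controls, 9.44 and 9.77% in midkine 3 and 4, and 15.6% (Wilson 95% interval 14.8 to 16.5%) in midkine 5. Gabarap took 55.0 to 57.1% in the controls and 56.1, 54.7 and 51.0% with midkine. Map1lc3a and Gabarapl1 had log2 fold changes of 0.33 and 0.29, without overlap and without passing the test.

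Sqstm1 encodes p62, the receptor that brings ubiquitinated cargo to ATG8 proteins and is itself degraded by autophagy. Its exons overlap Mrnip on the other strand. It stood at 1639, 1415 and 1811 normalized counts in the controls and 1949, 1935 and 1380 with midkine. Midkine 3 and 4 lay above the controls and midkine 5 below all of them. Midkine minus control, the log2 difference was 0.10 (SE 0.185, limma adjusted p 0.771), and 0.27 (SE 0.108, adjusted p 0.0959) without midkine 5.

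**Figure D4:**
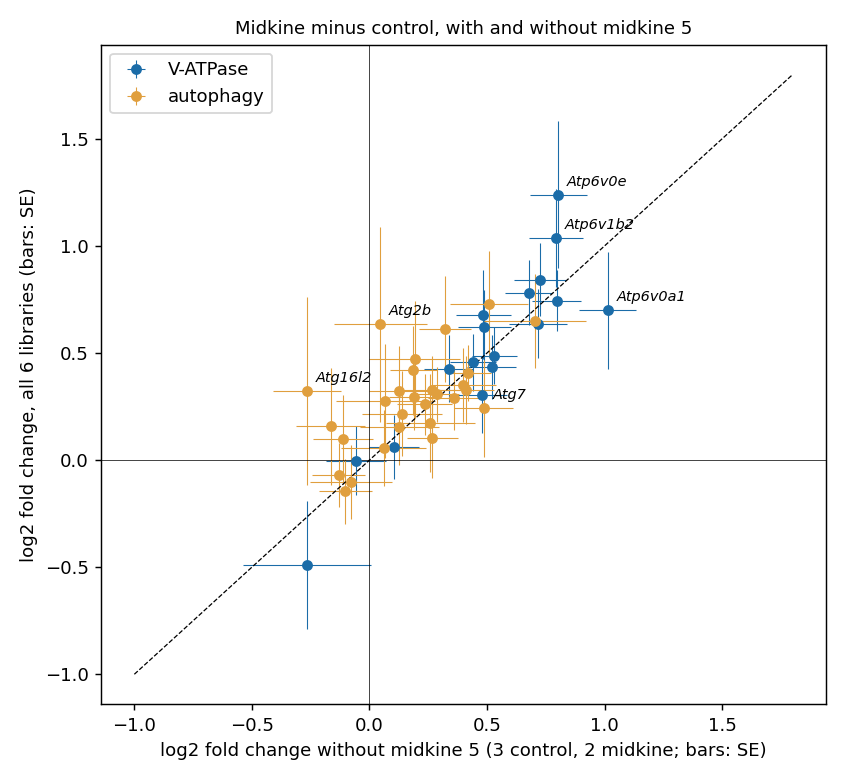
Log2 fold changes of the 45 tested members, midkine minus control, without midkine 5 (horizontal axis, 5 libraries) and with it (vertical axis, 6 libraries), with SE bars. The axes share libraries, so their agreement is no independent evidence. Points far above the diagonal, such as Atg2b (0.05 and 0.63), have their higher value with midkine 5 included, and Atp6v0a1 (1.01 and 0.70) lies below it.

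Which members depended on midkine 5 could be read from these values. In that library alone, 33 of the 45 members lay above every control and 5 below every control, while 41.8% of all genes lay above and 41.1% below. V-ATPase genes accounted for 12 of the 33 and 1 of the 5.

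Genes of the same pathways that the symbol rule does not reach were counted from lists. With all 6 libraries limma called 0 genes in each of the 5 lists. Among 12 V-ATPase subunits outside the rule and assembly factors, 5 rose and 0 fell without midkine 5. The median log2 fold change was 0.07 with all libraries and 0.36 without midkine 5. In midkine 5 alone, 5 of the 12 lay above every control and 5 below, against 41.8% and 41.1% of all genes. Those below included Dmxl2 and Wdr7, which rose without midkine 5. Dmxl2 held 153 normalized counts there (199 to 249 in the controls) and Wdr7 held 121 (187 to 221). Ccdc115, a factor of V-ATPase assembly, was at 384, 407 and 267 normalized counts in the controls and 591, 652 and 1644 with midkine, and rose by 0.84 (SE 0.147, limma adjusted p 0.000717). Atp6v0d2 rose by 1.47 (SE 0.267, limma adjusted p 0.000936), from 176, 343 and 117 normalized counts in the controls to 483 and 589 in midkine 3 and 4, with 317 in midkine 5. Vma21, a further assembly factor, had a log2 fold change of 0.40 (SE 0.153, limma adjusted p 0.0742) without midkine 5.

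The 18 autophagy genes outside the rule had medians of 0.08 and 0.09, with 2 rising and 1 falling. In midkine 5 alone, 9 of the 18 lay above every control and 7 below, against 41.8% and 41.1% of all genes. Tecpr1, which tethers autophagosomes to lysosomes, was at 212, 270 and 187 normalized counts in the controls and 360, 453 and 440 with midkine, without overlap, and rose by 0.87 (SE 0.150, limma adjusted p 0.000639). Vmp1, a lipid scramblase, was the gene that fell, from 902, 829 and 971 normalized counts in the controls to 553 and 648 in midkine 3 and 4, while midkine 5 held 1071. On the log2 scale the change was −0.59 (SE 0.11, limma adjusted p 0.00119) without midkine 5 and −0.31 with it. Tecpr2, Pik3c3 and Epg5 had 0.61, −0.57 and −0.35 with all 6 libraries and 0.32, −0.19 and −0.34 without midkine 5. They did not pass the test in either fit. Pik3c3 was at 230, 257 and 214 normalized counts in the controls and 195, 214 and 91.7 with midkine.

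Cargo receptors outside the rule gave 6 rising and 0 falling of 11, with medians of 0.34 and 0.54. Of the 6, 4 kept their direction in midkine 5. In that library 5 of the 11 lay above every control and 2 below, against 41.8% and 41.1% of all genes. The 2 below were Calcoco1, which rose without midkine 5, and Tax1bp1. Calcoco1 was at 106, 111 and 112 normalized counts in the controls and 190, 175 and 36.3 with midkine. Tax1bp1 was at 2482, 2518 and 2480 in the controls and 2598, 2370 and 1165 with midkine. Ncoa4, the receptor for ferritin, was at 485, 530 and 466 normalized counts in the controls and 720, 1049 and 1937 with midkine, without overlap, and rose by 0.82 (SE 0.133, limma adjusted p 0.000442). Bnip3l, a receptor for mitochondria that is induced during red cell maturation, gave 606, 620 and 535 normalized counts in the controls and 807, 1027 and 1213 with midkine, and rose by 0.64 (SE 0.118, limma adjusted p 0.00107). Both had their highest value in midkine 5. Of 2 measured red cell genes, Hbb-bs was at 13.3, 21.5 and 24.7 normalized counts in the controls and 55.1, 80.2 and 51.7 with midkine. Hba-a1 was at 9.23, 10.2 and 16.8 in the controls and 13.5, 30.6 and 9.98 with midkine, with overlapping groups, and the part of red cells in the Bnip3l values was not tested. Tollip and Retreg1, an adaptor for ubiquitinated cargo and a receptor for endoplasmic reticulum, rose by 0.74 and 0.54.

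In lysosomal nutrient sensing, the pathway by which amino acids bring mTORC1 to the lysosome in contact with the V-ATPase, 8 of 19 genes rose and 1 fell, with medians of 0.35 and 0.34. Lamtor1, which anchors the Ragulator scaffold to the lysosome, was at 1436, 1364 and 1564 normalized counts in the controls and 1965, 2569 and 2718 with midkine, and rose by 0.63 (SE 0.115, limma adjusted p 0.000938). Rragc, a GTPase held by that scaffold, and Fnip2, a subunit of the complex that regulates it, rose by 0.70 and 0.80. Rragb, a paralogue of Rraga, was the gene that fell, from 17.4, 20.5 and 16.8 normalized counts in the controls to 12.6 and 2.11 in midkine 3 and 4, with 0.908 in midkine 5. It passed the test (limma adjusted p 0.0370 without midkine 5), but the values in midkine 4 and 5 are under the floor of 3 reads.

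Of the 8 MiT/TFE and FOXO factors, which regulate lysosome and autophagy genes, 2 rose and 1 fell, with medians of 0.28 and 0.12. Mitf was at 313, 279 and 374 normalized counts in the controls and 503, 662 and 394 with midkine, and rose by 0.85 (SE 0.139, limma adjusted p 0.000445). Foxo1 rose by 0.60 (SE 0.156, limma adjusted p 0.0116). Zkscan3, described as a repressor of autophagy genes, fell by 0.54 (SE 0.126, limma adjusted p 0.00599), from 240, 246 and 260 normalized counts to 164 and 177 in midkine 3 and 4, while midkine 5 held 262. Tfeb was at 341, 384 and 376 normalized counts in the controls and 412, 361 and 859 with midkine, with a log2 fold change of 0.07 (SE 0.116, limma adjusted p 0.709) without midkine 5, and Tfec had 0.34 (SE 0.159, adjusted p 0.148). Tfe3 was at 801, 680 and 793 normalized counts in the controls and 740, 715 and 540 with midkine. Its log2 fold change was −0.20 (SE 0.172, limma adjusted p 0.528) with all libraries and −0.06 (SE 0.107, adjusted p 0.770) without midkine 5.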

How the data were processed

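Libraries for 6 samples were made with the QuantSeq 3′ FWD kit, per the labels' protocols. The authors deposited a signal per gene, namely read counts scaled between libraries. Tools named, without their roles, are FastQC 0.11.0, HTSeq, DESeq2, Bowtie 1.0.0, SAMtools 0.1.19 and TopHat2 2.0.10, with the build GRCm38 (mm10), per the submitters' processing notes. Strand setting, annotation release, gene filter and handling of multiply mapped reads: not given in the sources used here. Exons of 15 members overlap a gene on the other strand in GENCODE M21, and those of Atg9a overlap Gm29253 on the same strand. Whether an overlap lies at the 3′ end, where the reads come from, was not examined. All values were whole reads divided by a size factor (0.947 to 1.10), within 0.01 reads for 100% of values, and the table held 0 other columns of samples.

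The test was limma 3.58.1 (trend, R 4.3.3) on log2(normalized count + 1), which understates changes of low genes. It was two-sided, with a mean of at least 5, Benjamini-Hochberg adjustment over 13543 genes and a threshold of 0.05. The fit without midkine 5 used the same 13543 genes and 5 libraries. The quasi-likelihood test of edgeR 4.0.16 and DESeq2 1.42.0 were run on the whole reads. Other settings changed the pseudocount, filter, scaling and library weights, or left out a library. The tests were tried on simulated data. Wilson 95% intervals and the floor of 3 reads cover counting error only. Figures used matplotlib 3.10.9.

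Members, lists and tests were chosen with earlier results of these data known. Named members were the 12 largest changes in each direction whose groups did not overlap and whose mean was at least 20 (none qualified as lower), and the most abundant gene per role. Pathway lists could name up to 4 genes each, by smallest p. Further genes, among them Vmp1 and Tfeb, were named after their values were seen.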

Additional observations from a re-analysis of the deposited data

How the results depend on the processing

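The number of members called with all 6 libraries was 0 by limma and 9 by DESeq2 (689 of the 11704 genes given an adjusted p). It was 24 by limma with array weights, which gave midkine 5 a weight of 0.0967 and called 5076 of all 13543 genes. When each library was left out, limma called 0 to 22, 22 being the value without midkine 5 (2497 of all genes). Without midkine 5 the count stayed between 17 and 23 over its 8 other settings. The median V-ATPase log2 fold change of 0.62 became 0.48 under quantile normalization and 0.51 to 0.63 with a library left out, and the autophagy median of 0.29 became 0.19 to 0.34. With a library left out, members without overlap numbered 0 to 3 lower with midkine (2499 to 3222 of all genes) and 25 to 28 higher (2500 to 3230 of all genes), against 0 and 24. Among 18 named members and 270 settings, 229 kept direction and side of the threshold, 38 passed it where limma with equal weights on all 6 libraries did not (DESeq2, array weights or no midkine 5), and 3 changed sign: Atp6ap1 gave −0.089 under quantile normalization and −0.023 without midkine 3 (−0.023 to 0.11 over libraries left out), and Wipi2 gave 0.012 without midkine 4 (−0.13 to 0.012). The cause was not tested. No paired analysis was possible because the groups share only replicate number 4. Depth limits Atg9b and Rragb, whose values come near 3 reads.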
